A study of Mus musculus with 2 samples.

Results

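The skeletal myosin heavy chain cluster of the mouse is a run of 6 genes on the plus strand of chromosome 11, Myh3, Myh2, Myh1, Myh4, Myh8 and Myh13. The members were chosen by gene symbol, not by their measured values, though with earlier results of these data known. They make up 6 of the 21851 protein-coding genes of the annotation. With 50 kb on either side they fill chr11:67028300-67421586 of GRCm38 (mm10), a window of 393 kb with 14 annotated genes. The 9 protein-coding ones are the 6 members and, before Myh3, Tmem220, Adprm and Sco1. DNase-seq, which cuts nuclear DNA where it is not covered by nucleosomes, was applied to gastrocnemius, a fast calf muscle, from 2 males of the B6CASTF1/J hybrid at 36 days of age, giving 1 library per animal (replicates 1 and 2). There was no other group, so no condition was compared and no test between groups was possible. Nuclei came from whole tissue, and a site open in fewer nuclei cannot be told apart from a site less open in each nucleus.

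Myosin heavy chains are the motor proteins of the thick filament, and the isoform a fibre makes sets how fast it contracts. Myh3 encodes the embryonic and Myh8 the perinatal chain, Myh2, Myh1 and Myh4 the adult fast chains of type 2A, 2X and 2B fibres, and Myh13 a chain best known from the muscles that move the eye. The mouse gastrocnemius is mostly fast, and its type 2B and 2X fibres use Myh4 and Myh1. The long intergenic stretch between Myh3 and Myh2 holds 2310065F04Rik, a long non-coding RNA gene known in mouse muscle as Linc-Myh, and has been described in mouse as an enhancer region of the adult fast chains.

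Each library has a stricter (shorter) and a more permissive (longer) peak list. In the shorter lists, 6 regions of the window were open in both animals, of which 1 was the promoter shared by Adprm and Sco1 and the other 5 lay over 500 bp from any annotated start site. Their sequences on the plus strand of GRCm38 are shown because they carry the open chromatin of the cluster, with capitals for the bases that lay in a footprint, a short stretch protected from cutting, of both libraries. A further one is added that was in the shorter list of replicate 2 and the longer list of replicate 1.
Further downstream of Linc-Myh, chr11:67110301-67110500: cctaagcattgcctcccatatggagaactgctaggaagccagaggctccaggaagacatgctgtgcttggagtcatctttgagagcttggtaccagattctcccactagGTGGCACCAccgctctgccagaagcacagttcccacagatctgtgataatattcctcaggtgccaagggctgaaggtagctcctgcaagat
Downstream of Linc-Myh, chr11:67112101-67112300: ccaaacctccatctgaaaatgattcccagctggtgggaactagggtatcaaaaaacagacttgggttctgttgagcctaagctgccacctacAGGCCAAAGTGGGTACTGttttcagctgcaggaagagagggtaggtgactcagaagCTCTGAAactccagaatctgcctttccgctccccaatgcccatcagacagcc
Linc-Myh exon, chr11:67112875-67113060: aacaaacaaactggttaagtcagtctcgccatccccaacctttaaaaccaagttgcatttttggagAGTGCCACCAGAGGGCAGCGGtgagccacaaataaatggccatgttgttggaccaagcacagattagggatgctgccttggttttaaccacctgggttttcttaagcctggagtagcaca
Upstream of Linc-Myh, chr11:67120781-67121060: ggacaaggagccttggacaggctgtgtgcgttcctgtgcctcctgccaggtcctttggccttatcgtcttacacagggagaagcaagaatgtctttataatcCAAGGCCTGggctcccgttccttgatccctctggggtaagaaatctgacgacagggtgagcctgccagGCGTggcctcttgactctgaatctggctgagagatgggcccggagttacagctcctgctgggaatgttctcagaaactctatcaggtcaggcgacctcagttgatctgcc
Before Myh2, chr11:67153302-67153460: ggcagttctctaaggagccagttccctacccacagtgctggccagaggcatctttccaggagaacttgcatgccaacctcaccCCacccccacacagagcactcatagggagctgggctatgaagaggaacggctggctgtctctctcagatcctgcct
Myh13 intron, chr11:67350501-67350700: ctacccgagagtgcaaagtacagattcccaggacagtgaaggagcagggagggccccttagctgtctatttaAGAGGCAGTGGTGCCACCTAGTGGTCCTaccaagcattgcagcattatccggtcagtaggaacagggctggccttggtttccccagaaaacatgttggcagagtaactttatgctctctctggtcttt

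None of the 6 members had a peak within 500 bp of a start site in the shorter list of either library. Over all protein-coding genes, 54.2% had such a promoter peak in both libraries. In the longer lists, where 59% of all genes had a promoter peak in both libraries, Myh4 was the only member with a promoter peak in both. Myh8 had a longer-list peak in replicate 1 alone, at 0.629 on the deposited signal scale, percentile 19.9 of that list. The signal is the height of the cleavage density, and its scaling between libraries is not stated. The Myh8 peak began at position 67276745 and ended 324 bp before the Myh8 start, and replicate 2 listed no low q-value there.

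The deposited q-values, which give the false discovery rate of the cut rate for each run of bases and are listed only below 0.05, were read around the same start sites. Myh3, Myh2, Myh1 and Myh13 had no base at or below 0.05 within 500 bp of any basic protein-coding start site in either library. Over all genes, 59.9% had such a base in both libraries, and among the members only Myh4 did. Measured from the nearest basic start site, the closest low-q base lay 1996 bp away in replicate 1 and 2045 bp in replicate 2 for Myh3. For Myh2 it lay 7173 bp away in replicate 1 and 1401 bp in replicate 2. Both genes thus had their nearest open base outside the promoter window. For Myh1 it lay 4404 bp away in replicate 1 and 30426 bp in replicate 2. For Myh13 it lay 23361 bp away in replicate 1 and 23333 bp in replicate 2, within the gene. Of the 32-base words within 500 bp of the members' gene starts, 98.8% to 100% occurred at a single place in the genome.

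**Figure D1:**
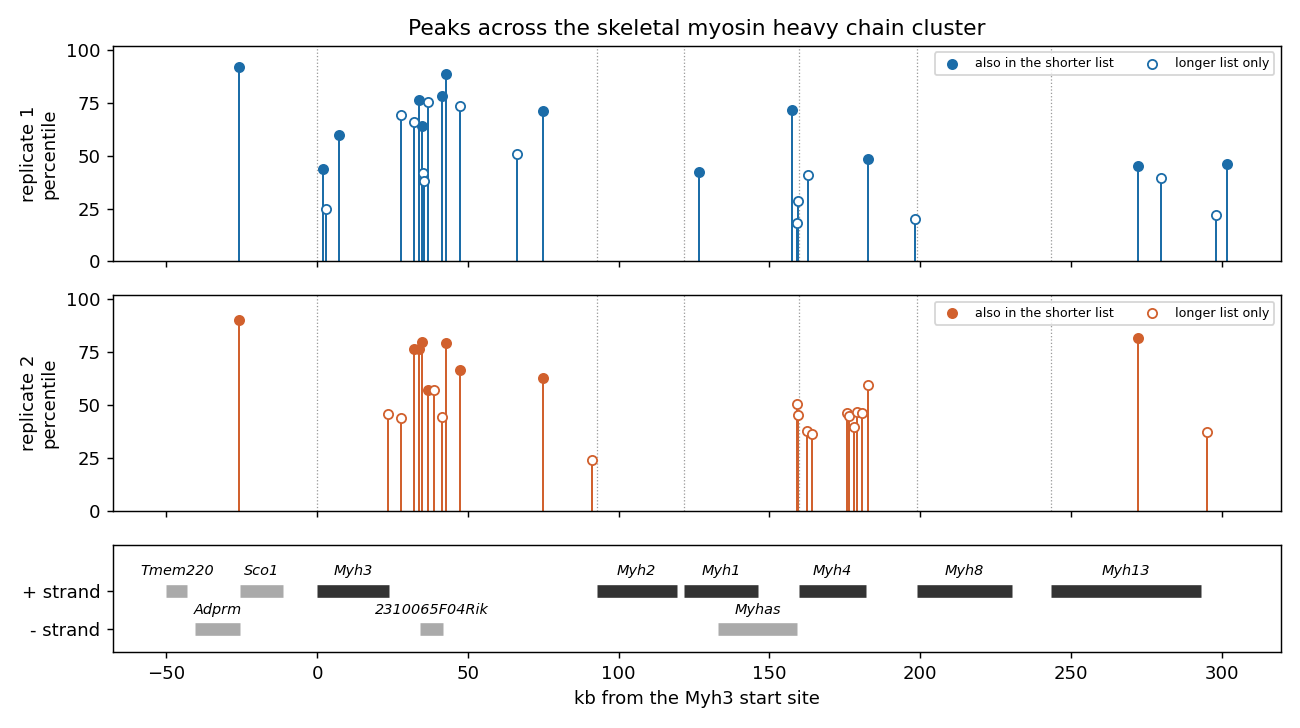
Peaks of the longer lists across the cluster, by distance from the Myh3 start site in kb (horizontal axis) and by the percentile of the peak's signal value within its own library's longer list (vertical axis), with genes by strand below. Filled points are regions that also hold a peak of the shorter list, open points are in the longer list only, and dotted lines mark the members' annotated starts. Points crowd between Myh3 and Myh2 in both libraries, while Myh2 and Myh8 hold no peak and the 7 exon peaks of Myh4 appear in replicate 2 alone.

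The Myh4 promoter was open at a low level in both animals, and at the start site that RefSeq gives. The first Myh4 start of the basic GENCODE set is at position 67238029, and RefSeq starts the gene 217 bp earlier, at 67237812. The low-q stretch ran over chr11:67237765-67237870 in replicate 1, with a lowest q of 0.00880. In replicate 2 it ran over chr11:67237766-67237880, with a lowest q of 0.0110. Both stretches cover the RefSeq start, with edges that differ by 1 base on the left and 10 bases on the right. The peak had a signal value of 0.740 in replicate 1, percentile 28.5 of the longer list, and 0.723 in replicate 2, percentile 45.5. No footprint there was shared, since replicate 1 had a footprint at chr11:67237790-67237796 and replicate 2 at chr11:67237835-67237841. A further weak region, chr11:67237399-67237547, lay 26 bp from the start of Myhas, an antisense RNA gene that runs the other way from this point, with values of 0.604 in replicate 1 and 0.802 in replicate 2. By the rank of the lowest q and of the share of low-q bases around the starts in both libraries, over all protein-coding genes, Ect2l and Gm10037 were among the 3 most like Myh4, with ranks that differed on average by 0.220% and 0.249% of the list. In all, 285 genes came within 2% of it.

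The promoters of the adult fast members and of Myh8 share stretches of sequence. RefSeq promoters, from 250 bases before to 50 bases after the start on GRCm38.p6, were available for all 6 members. They are shown for the 4 genes that share runs of at least 12 bases on the same strand in at least 3 member promoters, and capitals mark those runs.
Myh2 promoter, chr11:67170777-67171076: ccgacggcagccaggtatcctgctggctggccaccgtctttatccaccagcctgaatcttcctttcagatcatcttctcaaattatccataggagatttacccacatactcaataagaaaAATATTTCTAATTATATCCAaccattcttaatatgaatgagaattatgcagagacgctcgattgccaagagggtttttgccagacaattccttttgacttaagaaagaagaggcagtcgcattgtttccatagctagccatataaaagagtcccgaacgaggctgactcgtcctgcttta
Myh1 promoter, chr11:67199852-67200151: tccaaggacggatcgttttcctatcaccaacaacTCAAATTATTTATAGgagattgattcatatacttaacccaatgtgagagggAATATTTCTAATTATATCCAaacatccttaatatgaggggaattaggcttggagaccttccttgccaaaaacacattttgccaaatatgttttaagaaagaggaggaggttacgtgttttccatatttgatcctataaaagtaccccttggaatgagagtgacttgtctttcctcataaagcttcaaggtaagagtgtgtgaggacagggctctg
Myh4 promoter, chr11:67237562-67237861: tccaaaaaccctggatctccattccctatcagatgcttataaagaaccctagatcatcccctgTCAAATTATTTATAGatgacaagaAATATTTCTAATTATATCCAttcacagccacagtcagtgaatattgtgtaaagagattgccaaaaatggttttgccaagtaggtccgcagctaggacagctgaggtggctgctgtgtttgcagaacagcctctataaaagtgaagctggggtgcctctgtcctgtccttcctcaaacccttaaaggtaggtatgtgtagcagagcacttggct
Myh8 promoter, chr11:67276874-67277173: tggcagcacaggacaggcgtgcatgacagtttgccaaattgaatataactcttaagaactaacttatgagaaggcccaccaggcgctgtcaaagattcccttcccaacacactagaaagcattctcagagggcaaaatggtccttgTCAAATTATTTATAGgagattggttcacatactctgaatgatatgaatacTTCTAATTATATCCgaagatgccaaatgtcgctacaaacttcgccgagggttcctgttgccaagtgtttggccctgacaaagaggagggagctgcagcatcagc

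The longer run, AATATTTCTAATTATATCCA, began 130 bp before the start of Myh2, 165 bp before that of Myh1 and 163 bp before that of Myh4. Its inner part, TTCTAATTATATCC, began 54 bp before the start of Myh8. The shorter run, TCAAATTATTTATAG, began 216 bp before the start of Myh1, 187 bp before that of Myh4 and 104 bp before that of Myh8. Each 12-base word of these runs occurred in 0 to 3 of the 32845 other RefSeq promoters. The shorter run holds a match to the site of MEF2, a family of muscle transcription factors, which was present in 3 of the 6 member promoters, against 3.18% of the others. In Myh4 both runs lie at chr11:67237625-67237668, before the left edge of the low-q stretch at the start and after the end of that at Myhas, so neither library listed them as open. A match was searched on both strands, and says only that the letters are there.

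TATAAA, the core of the TATA box that places the start of transcription, stood 29 bp before the RefSeq start of Myh3, 32 bp before that of Myh1 and 31 bp before that of Myh4. A TATAAA between 15 and 40 bp before the start was present in 3 of 6 members, against 2.56% of 20137 other promoters of protein-coding genes. In Myh2 the nearest TATAAA stood 10 bp after the RefSeq start, and the RefSeq promoters of Myh8 and Myh13 held no TATAAA on the plus strand. Myh2 and Myh13 depend on the start used. In Myh2 a further annotated start, at 67171066 and outside the basic set, lies after the TATAAA, and the distance was not counted. RefSeq starts Myh13 at 67327103, and a TATAAA stood 28 bp before an earlier GENCODE start at 67321780. Member promoters were poor in G and C, with a median GC content of 43.8% (range 38 to 53%), against a median of 57% in the others. They held a median of 3.5 CpG pairs (range 1 to 9), against a median of 14. The shares that follow are of all 32845 other RefSeq promoters, not only those of protein-coding genes. The site of serum response factor is the CArG box, searched with 6 A or T bases between CC and GG. At the RefSeq starts it was present in Myh4 and Myh13, 2 of 6 members, against 1.62%. It began 104 bp before the start in Myh4 and 22 bp after the start in Myh13. In Myh13 the bases from the RefSeq start on begin with ATG, and GENCODE has earlier starts. The match in Myh13 may thus lie in coding bases rather than at a promoter, which was not tested. Its GC content of 53%, the top of the range, and its other matches carry the same limit. The E-box CANNTG, the letters bound by MyoD and its relatives, was present in 4 of 6, against 72.3%. Of the E-boxes, CAGCTG was found in Myh4 alone, 67 bp before the start, against 16.3% of other promoters. TTGGC, part of the site of nuclear factor I proteins, was present in 6 of 6, against 46.7%.

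**Figure D2:**
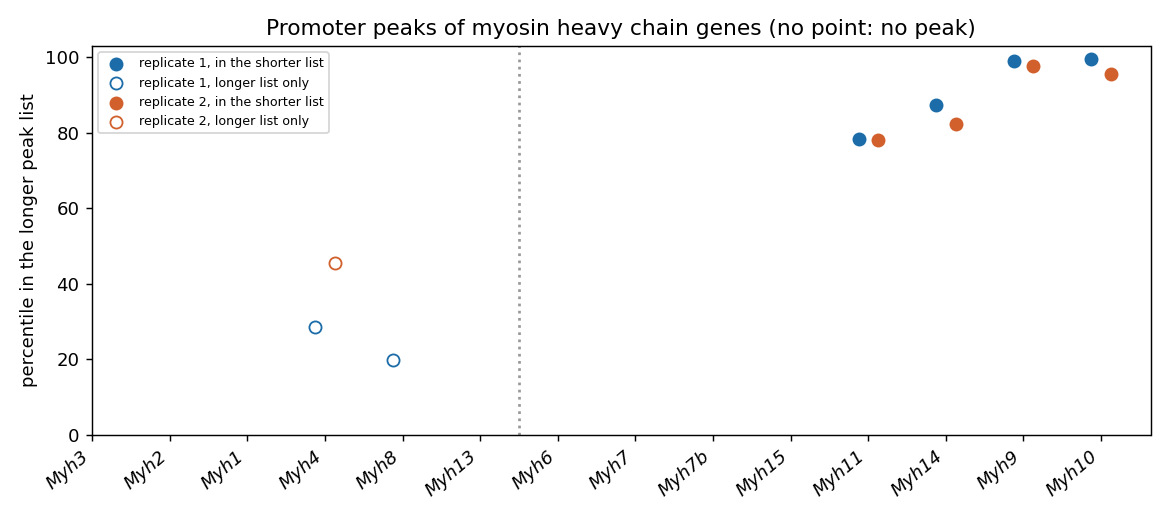
Promoter peaks of 14 myosin heavy chain genes (horizontal axis, the 6 cluster members left of the dotted line and 8 others right of it) by percentile within each library's longer list (vertical axis). Filled points are also in the shorter list, open points are in the longer list only, and a gene without a point had no promoter peak. The cluster holds 3 points, at 19.9, 28.5 and 45.5, while Myh11, Myh14, Myh9 and Myh10 lie at 78.1 or above in both libraries.

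The members were set beside 8 myosin heavy chain genes on other chromosomes or outside the cluster. Myh9 and Myh10, the non-muscle chains, had promoter peaks with signal values of 14.3 and 15.9 in replicate 1 and of 6.93 and 5.58 in replicate 2. Myh14, a further non-muscle chain, had 3.90 in replicate 1 and 2.16 in replicate 2. Myh11, the smooth muscle chain, had 2.42 in replicate 1 and 1.77 in replicate 2. These 4 had shorter-list promoter peaks in both libraries. The cardiac and slow chains Myh6 and Myh7, and Myh7b and Myh15, had no promoter peak in any list and no low-q base within 500 bp of a start.

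Of 20 known regulators of these genes, 18 had a shorter-list promoter peak in both libraries, 2 in replicate 2 only, and all 20 a longer-list peak in both. Over all protein-coding genes, 54.2% had a shorter-list and 59% a longer-list promoter peak in both libraries. Mafa and Maf, transcription factors that in mouse act in type 2B fibres, had promoter peaks with signal values of 11.7 and 5.28 in replicate 1 and of 5.45 and 3.17 in replicate 2. Mef2a, which binds MEF2 sites, had 11.2 in replicate 1 and 7.81 in replicate 2. Sox6, a repressor of slow-fibre genes, had 1.59 in replicate 1 and 1.87 in replicate 2. The 2 with a peak in the shorter list of replicate 2 only were Myf6, a myogenic factor of mature fibres, and Ppargc1a, a coactivator of oxidative metabolism.

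The tissue was checked by its markers. Of 12 fibre markers such as Acta1, Ckm and Mylpf, 9 had shorter-list promoter peaks in both libraries and 12 longer-list peaks in both. Of 6 genes each, the shorter lists of both libraries held promoter peaks of 3 fibro-adipogenic progenitor, 2 endothelial, 2 satellite cell, 0 macrophage, 0 erythroid and 0 heart markers. The longer lists of both held 4, 5, 3, 1, 2 and 1 of the same lists. The shares over all protein-coding genes were 54.2% in both shorter lists and 59% in both longer lists. Markers with a peak in a single library are not in these counts. Over the libraries the shorter lists held 50760 and 49230 peaks, the longer 83409 and 83736, and the footprint lists 155037 and 234134 footprints for replicates 1 and 2. Depth in reads is unknown. Signal values came in whole multiples of 0.0123 in replicate 1 and 0.00657 in replicate 2, so levels were compared by percentile within a library. Which cell types the open regions of the cluster came from was not tested.

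Open regions were placed unevenly along the cluster window. The shorter lists had 13 peaks there in replicate 1 and 9 in replicate 2, which merged into 16 regions. Of these, 6 (37.5%) held a peak of each library, against 51.2% of merged regions over the genome. That is 1.53 regions open in both per 100 kb, against 1.23 over the genome. The longer lists gave 38 regions, 14 of them (36.8%) in both libraries, against 47.4%. The density of regions in both was then 3.56 per 100 kb, against 1.96. Bases with a q-value at or below 0.05 numbered 5692 in replicate 1 and 6028 in replicate 2, of which 3266 were shared.

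**Figure D3:**
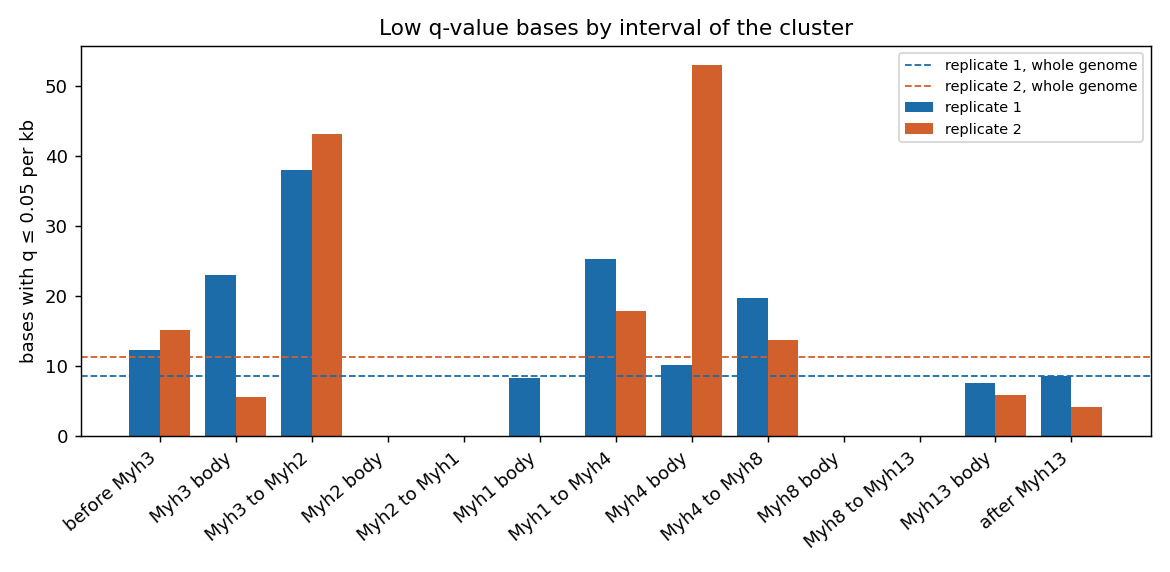
Bases with a q-value at or below 0.05 per kb (vertical axis) in 13 successive intervals of the cluster window (horizontal axis), with bars for each library and dashed lines for each library's mean over the genome, 8.54 and 11.3 per kb. The Myh3 to Myh2 interval is high in both libraries, at 38.1 and 43.2 per kb, Myh4 is high in replicate 2 only, and 4 intervals have no such base in either.

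Of the 13 intervals, the stretch between Myh3 and Myh2 had the highest density of low-q bases in replicate 1 and the second highest, after the Myh4 body, in replicate 2. Over its 68.7 kb it had 38.1 low-q bases per kb in replicate 1 and 43.2 in replicate 2, against genome means of 8.54 and 11.3. The shorter list of replicate 1 had 5 peaks there and that of replicate 2 had 7, and 28 of the 49 footprints of the window in replicate 1 and 30 of the 59 in replicate 2 lay in it. It held 4 of the 6 regions open in both libraries, or 5.82 per 100 kb. Among 2076 gaps of 50 to 100 kb between protein-coding genes, the median was 1 such region, the highest 16, 46.8% had none, and 8.33% had at least 4. The comparison of gaps was chosen after the map of the window had been seen.

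Other intervals were quieter or differed between animals. The Myh2 and Myh8 bodies, the 2.53 kb between Myh2 and Myh1 and the 13.0 kb between Myh8 and Myh13 had no listed low-q base in either library. Myh1 had 203 low-q bases in replicate 1 and 0 in replicate 2. Myh3 had 552 in replicate 1, all in introns, and 133 in replicate 2. The Myh3 signal of replicate 1 came mainly from peaks at chr11:67080338-67080424 and chr11:67085537-67085693, which had no counterpart in either peak list of replicate 2. At the first of them replicate 2 did have 26 low-q bases, with a lowest q of 0.0416, and these were the only ones shared in Myh3. Myh13 had 378 in replicate 1 and 295 in replicate 2, with 202 shared. Between Myh1 and Myh4 there were 25.3 low-q bases per kb in replicate 1 and 17.9 in replicate 2. Between Myh4 and Myh8 there were 19.8 per kb in replicate 1 and 13.8 in replicate 2.

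**Figure D4:**
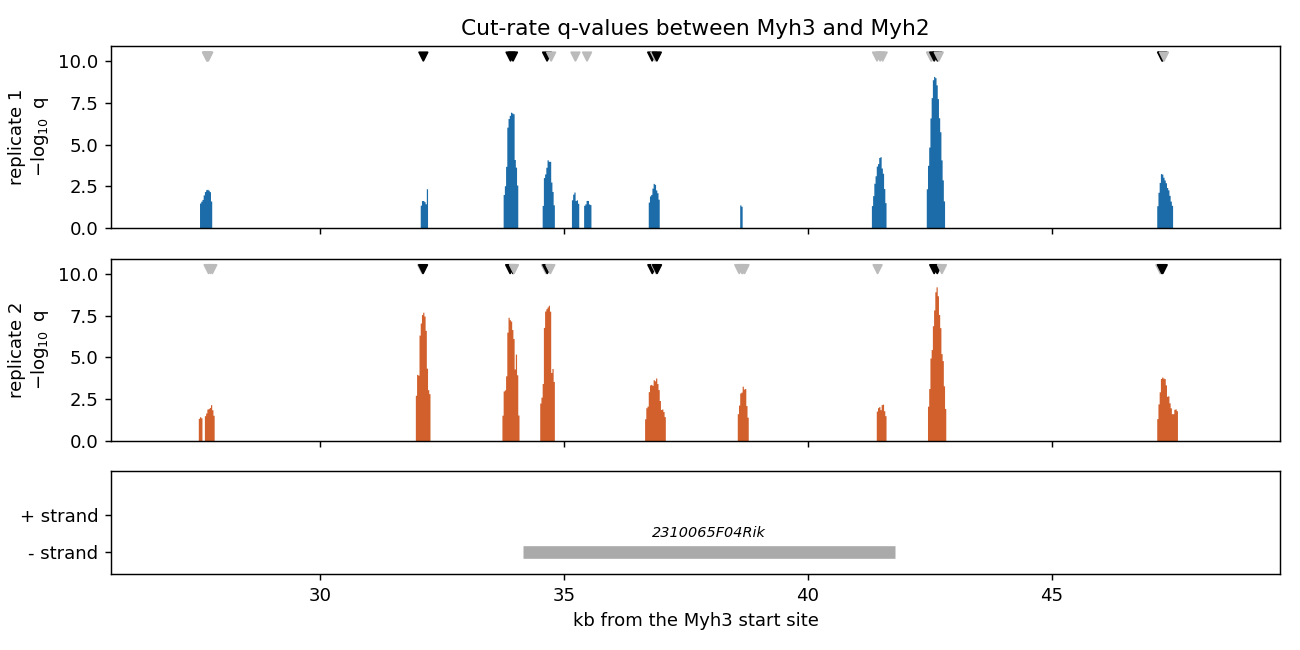
Lowest q-value in 25-base bins between Myh3 and Myh2, as its negative log10 (vertical axis), by distance from the Myh3 start site in kb (horizontal axis), for each library, with Linc-Myh (2310065F04Rik, minus strand) below and footprints as triangles, black where the other library has an overlapping footprint and grey where it does not. Most summits recur at the same places in both libraries, with the highest about 42.6 kb from the Myh3 start, upstream of Linc-Myh.

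Of the regions open in both shorter lists away from promoters, the strongest by the lower of its percentiles in the libraries lay upstream of Linc-Myh, at chr11:67120781-67121060, 701 bp before its first start site. Its value was 4.31 in replicate 1, percentile 81.5 of the shorter list, and 1.89 in replicate 2, percentile 65.1. The lowest q-value was 7.93e-10 in replicate 1 and 5.89e-10 in replicate 2. The region downstream of Linc-Myh, chr11:67112101-67112300, had 2.24 in replicate 1 (percentile 61.6) and 1.68 in replicate 2 (percentile 60.5). The region in a Linc-Myh exon, chr11:67112875-67113060, had 1.52 in replicate 1 (percentile 42.0) and 1.93 in replicate 2 (percentile 65.9). The ranks of these regions thus lay in the middle to upper part of each list. The region before Myh2, chr11:67153302-67153460, lay 17.6 kb from the Myh2 start and had 1.86 in replicate 1 (percentile 52.9) and 1.06 in replicate 2 (percentile 38.9). The region in the Myh13 intron, chr11:67350501-67350700, had 0.999 in replicate 1 (percentile 17.9) and 2.09 in replicate 2 (percentile 68.8). This region differed most in rank between the animals. In replicate 2 it and the Linc-Myh exon region ranked above the region upstream of Linc-Myh. The shared promoter of Adprm, which encodes a diphosphatase, and Sco1, a copper chaperone of cytochrome oxidase, had 5.81 in replicate 1 (percentile 87.0) and 3.48 in replicate 2 (percentile 83.1), and was the highest of the window.

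Of the regions in the shorter list of replicate 1 alone, the 3 highest were chr11:67119695-67119833 at 2.42, chr11:67235780-67235874 at 1.89 and chr11:67085537-67085693 at 1.37. Of these, the one beside the first Linc-Myh start site, 247 bp away, also had a peak of 0.703 in the longer list of replicate 2. The one in a Myhas intron, 2.16 kb before Myh4, had a lowest q of 5.54e-08 in replicate 1 and no listed low q in replicate 2. The 3 in the shorter list of replicate 2 alone were chr11:67110301-67110500 at 1.68, chr11:67125527-67125636 at 1.18 and chr11:67115141-67115233 at 0.927. All 3 lie between Myh3 and Myh2, and each had a peak in the longer list of replicate 1, at 1.59, 2.00 and 2.13. With the longer lists, 9 regions of this stretch held a peak of each library. Around Linc-Myh, replicate 2 also had a longer-list peak of 0.927 at chr11:67116854-67117054, 13 bp from the second start site of that gene, where replicate 1 had 16 low-q bases and no peak.

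Most footprints of the window were called in a single library, and whether their share differs from the genome's was not tested. Of the 49 footprints of replicate 1, 13 (26.5%) overlapped a footprint of replicate 2, against 52.2% over the genome. Of the 59 of replicate 2, 13 (22%) overlapped one of replicate 1, against 33.1%. Apart from 1 in the Adprm and Sco1 promoter and 1 in the Myh13 intron, the shared ones, 11 in number, lay between Myh3 and Myh2. The widest shared ones were in the Myh13 intron, with 28 bases common to both libraries, in the Linc-Myh exon, with 21, and in the region downstream of Linc-Myh, with 18.

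Both of the widest shared footprints hold the core letters of the site of CTCF, a zinc finger protein that organises chromatin loops and boundaries. The core was searched on both strands as CCA, 2 bases of any kind, AG, 2 bases of any kind and GGC, a search added after the footprint sequences had been seen. It read CCACCAGAGGGC at chr11:67112945-67112956 on the plus strand in the Linc-Myh exon. On the minus strand in the Myh13 intron, chr11:67350585-67350596, it read CCACTAGGTGGC, and the same 12 letters stood on the plus strand at chr11:67110403-67110414, in the region open in replicate 2 and in the longer list of replicate 1. The letters are therefore on the plus strand at both sites between Myh3 and Myh2 and on the minus strand at the site in Myh13, 240 kb from the outermost of them. Of 27 such matches in the window, 3 had a low q-value in both libraries, 5 in 1 library, and the same 3 lay in a footprint of both. The strands above are those of these 3 alone. The 5 were on the minus strand at 67080402 and 67101870 in Myh3. After Myh13 they were on the plus strand at 67373482 and on the minus strand at 67376484 and 67380435. In 200-base windows the core was present in 2 of the 5 regions open in both away from promoters, against 19.0% of 17287 other such regions.

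Of the letters searched for muscle factors, few lay in shared footprints. In the region downstream of Linc-Myh, TTGGC stood on the minus strand at chr11:67112195-67112199, inside a shared footprint. In the region before Myh2, CACCC, part of the site of Krüppel-like factors, stood in 2 adjacent copies at chr11:67153381-67153390, where the footprints of the libraries overlapped by 2 bases. In 200-base windows centred on the 5 regions, TTGGC was present in 4, against 50.6% of other regions, CANNTG in 2, against 73.2%, CAGCTG in 1, against 25.8%, and the MEF2 and CArG sites in 0, against 1.58% and 0.926%. Their GC content had a median of 51.5%, against 54.5%.

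**Figure D5:**
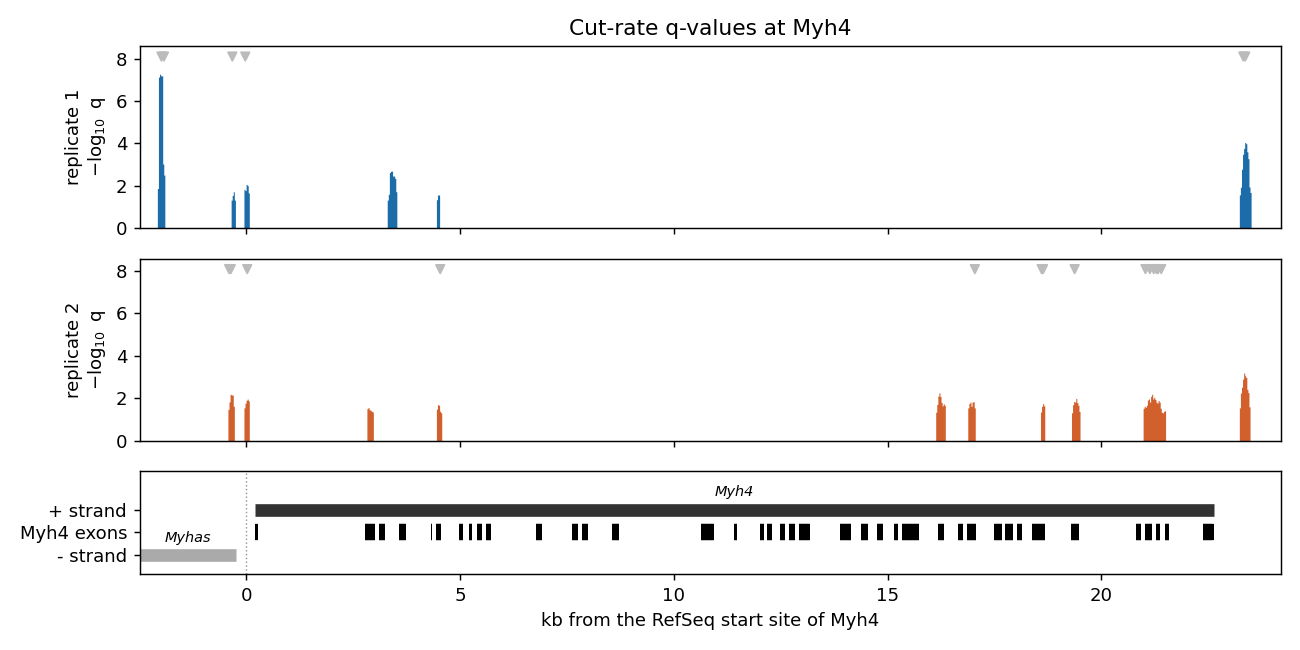
Lowest q-value in 25-base bins at Myh4, as its negative log10 (vertical axis), by distance from the RefSeq start site in kb (horizontal axis, dotted line at 0), for each library, with Myh4, its exons of all transcripts and Myhas below and footprints as grey triangles (none overlaps one of the other library). Both libraries have a small summit at the start, and replicate 2 has a series of summits over exons towards the end of the gene.

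Within Myh4 itself the animals differed. Replicate 1 had 227 low-q bases in the gene body, 10.1 per kb, a density that 54.1% of protein-coding genes reached. Replicate 2 had 1191, 53.1 per kb, a density that 22.4% reached. Of these bases, 18.5% lay in exons in replicate 1 and 80.4% in replicate 2, while exons make up 26.8% of the gene. The longer list of replicate 2 had 7 peaks in the body, each over an exon, with values of 0.598 to 0.743, and replicate 1 had 1, in an intron, at 0.925. The replicate 2 peak at chr11:67240642-67240765, with a value of 0.618, lay 45 bp from a later GENCODE start of Myh4 at 67240597. By the 500 bp rule it is also a promoter peak. Over 1000 bp from start sites, 78.7% of 1092 low-q bases of Myh4 in replicate 2 and 100% of 42 in replicate 1 were exonic. In replicate 2, 11.4% of 6259 genes with at least 200 such bases had an exonic share at least as high as Myh4. The 42 bases of replicate 1, chr11:67242283-67242324, overlap a stretch of replicate 2. The median share over the 6259 genes was 0. Exons made up a median of 8.19% of their bodies away from start sites, against 27.9% for Myh4. No base of the body had a q-value at or below 0.001 in either library. Of the 32-base words of Myh4 exons, 73.2% occurred at a single place in the genome, against 99.2% in its introns. For the 7 exon peaks that share was 66.7% to 100%. The treatment of reads with several matches is not given in the sources used, and the part of this in the exon signal was not tested. The exon counts were chosen after the peaks had been seen.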

How the data were processed

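The members, gene lists and motifs were chosen with earlier results of these data known. Per the labels, the files use mm10, and the animals are separate biological replicates. For each library the authors deposited 2 peak lists whose signal value is the height of the cleavage density, footprints with a score of 0.01 on every line (used by position only), and q-values per run of bases, listed below 0.05. Aligner, callers, their settings and the handling of CAST/EiJ alleles in these hybrids stand in none of the sources used here. Python 3.11.15, numpy 2.4.6, pandas 2.3.3 and matplotlib 3.10.9 were used to overlap intervals (minimum 1 bp, checked on simulated intervals) with GENCODE release 21 and its basic protein-coding start sites, to count bases with a q-value at or below 0.05, and to search 15 motifs on both strands. All 6 members, the regions open in both shorter lists and the 3 highest single-library peaks were named. A few genes of the lists are not reported here. With 1 group of 2 animals no test was run, and p-values are not given. Depth in reads is unknown, so no counting interval can be given, and an unlisted site is not shown to be closed.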

Additional observations from a re-analysis of the deposited data

How the results depend on the processing

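The number of cluster genes whose promoter had a peak in each library, 0, was the same under 7 of 9 alternatives and became 1 (Myh4) with the longer lists, with either set of start sites. Leaving out a replicate gave 0 and 0. Regions open in both, 6, became 14 with the longer lists, 3 with peaks at or above the list median, and 14 with 100 kb flanks, with a range of 9 to 13 in a single library. Shared footprints, 13, became 8 at a reciprocal overlap of 50%, 8 inside shorter-list peaks and 24 with 100 kb flanks, and a single library had 49 to 59. Shared low-q bases, 3266, became 2069 at a q-value of 0.01, 1366 at 0.001 and 6341 with 100 kb flanks, with 5692 to 6028 in a single library. Within the longer lists the lower percentile of the region upstream of Linc-Myh became 79.5, against 65.1 in the shorter ones. The RefSeq start sites were added after the data had been seen. No paired analysis was possible because there is 1 group. A stricter list, wider window or single library changes such counts by construction. Read depth limits what could be listed as open, and by how much is unknown.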

Other observations

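Low q-value bases over 1000 bp from start sites were also counted in 15 genes of muscle fibres, a comparison chosen after the Myh4 values had been seen, and their exonic shares did not follow 1 pattern. Ttn, which encodes the giant spring protein titin, had 6657 such bases in replicate 2, 94.2% of them exonic, and 695 in replicate 1, 9.93% exonic, while 43.2% of that body is exonic. Atp2a1, the calcium pump of fast fibres, had 3756 in replicate 2, 26% of them exonic, and 365 in replicate 1, 0% exonic, while 14.6% of the body is exonic. Ckm, muscle creatine kinase, had 1269 in replicate 2, 35.0% exonic, and 306 in replicate 1, 0% exonic, with 11.4% of the body exonic. Neb, nebulin, had 616 in replicate 2, 33.9% exonic, and 1038 in replicate 1, 5.11% exonic, with 10.1% of the body exonic. In these genes the exonic share lay above that of the body in replicate 2 and below it in replicate 1. Other genes did not show that difference. Acta1, skeletal muscle actin, had 1946 in replicate 2, 69.7% exonic, and 244 in replicate 1, 51.6% exonic, but 69.9% of its body is exonic. Ryr1, the calcium release channel, had 1029 in replicate 2, 33.0% exonic, and 1015 in replicate 1, 38.1% exonic, with 16.9% of the body exonic. For Ryr1 the exonic share thus lay above that of the body in both libraries. In replicate 2 Pvalb, Cacna1s, Mb and Actn3 had low q-value bases but none in exons. Des, Myh7 and Tnnt3 had no low q-value base over 1000 bp from start sites in replicate 2, though Des and Tnnt3 had some at their promoters. Mylpf and Tnni2 cannot be read either way. The part of Mylpf over 1000 bp from start sites holds no exon, and Tnni2 has no such part.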
